A study of Mus musculus with 3 samples.

Results

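Ccr2, the receptor that draws monocytes out of the circulation, was examined here together with the RFP reporter and 6 other genes. These were Ccr1, Ccrl2, Ccr9, Cxcr6, Xcr1 and Fyco1, called neighbours here although Ccrl2 lies 13044 kb from Ccr2. The 8 members were chosen by name, as genes at the Ccr2 locus plus the reporter, and all 8 are measured in the 3 expression tables, which hold 17678 (brain), 16462 (blood of naive mice) and 16887 (blood of metastasis-bearing mice) genes. The comparison asks whether the neighbours of the targeted gene shift with it in brain cells that lack CCR2.

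The data are 10x 3′ single-cell libraries of 1 pool of 8 hashed samples, with antibody and hashtag counts for the same droplets. The 4 brain samples came from naive mice, 2 labelled CCR2+/- and 2 labelled CCR2-/-, each hashed apart. Samples are numbered here in the order of their hashtags, and a shared number pairs nothing. The 4 blood samples were a Het and a Hom sample of naive mice and a Het and a Hom sample of metastasis-bearing mice. The series' design names Cx3cr1+/- and Cx3cr1-/- mice beside the CCR2 genotypes, but the labels do not say which gene Het and Hom refer to. All groups share the same animal background: female C57Bl/6 mice, 2 to 3 months of age, perfused before tissue was taken, with 1 brain hemisphere or whole blood per preparation. Metastasis-bearing mice had received E0771 mammary carcinoma cells through the carotid artery about 2 weeks earlier. The labels do not say how the CCR2 allele was made or where RFP was inserted, and nothing in them says that hashed samples of 1 genotype are separate animals, so the p-values below measure only the spread between these samples, which may be technical.

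CCR2 is a chemokine receptor that senses Ccl2, Ccl7 and Ccl12 and lets Ly6C-high monocytes leave the bone marrow and enter inflamed tissue. Microglia, the resident macrophages of the brain, are known for having little of it, whereas monocyte-derived cells and some T and NK cells have more. In Ccr2-RFP mice, as they are commonly built, the red fluorescent protein replaces part of the Ccr2 gene, so that RFP marks cells in which the Ccr2 promoter is used. Chemokine receptor genes lie in a cluster on this chromosome, each with its own pattern over blood cell types.

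By RefSeq (GRCm38.p6, the mm10 build the submitters used), Ccr2 lies on chromosome 9 from 124101918 to 124109140 on the plus strand. Ccr1, a receptor of Ccl3, Ccl5, Ccl6 and Ccl9 on neutrophils and monocytes, lies 133 kb before it (123962126 to 123968692, minus strand). Xcr1, the receptor of Xcl1 on type 1 dendritic cells, is 240 kb away (123852315 to 123862029, minus strand). Fyco1, an adaptor for the transport of autophagosomes, is 250 kb away (123789500 to 123851899, minus strand). Cxcr6, the Cxcl16 receptor of tissue-resident lymphocytes, lies within the span of Fyco1 but on the plus strand (123806477 to 123811754), 290 kb from Ccr2. Ccr9, the Ccl25 receptor of gut-homing lymphocytes, is 318 kb away (123767211 to 123783457, plus strand). Ccrl2, which binds chemerin and does not signal by itself, is at 111054834 to 111057518 on the minus strand, 13044 kb from Ccr2, and so is not part of the cluster. Fyco1 and Cxcr6 overlap on opposite strands, and reads shared among similar receptor genes may be split or lost, so small values of these genes are uncertain.

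Of 16328 deposited cells, 2401 barcodes occur in more than 1 of the 3 tables. All results below therefore rest on 11063 clear cells, whose barcode is in a single table and of whose hashtag counts at least 0.5 came from that table's own hashtags. In the brain these were 908 and 730 cells of CCR2+/- samples 1 and 2 and 675 and 1037 cells of CCR2-/- samples 1 and 2, with median raw UMI counts per cell of 6189 to 7393. The blood samples held 1716 to 2074 clear cells with medians of 3928 to 4709. Values are corrected counts, and a level is the number of corrected counts of a gene per 10000 of all genes in the cells named. Intervals on single levels and shares are exact 95% intervals that cover counting error only. Levels of different genes are not compared, because 3′ counting efficiency differs between genes.

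The authors' clusters were checked against marker genes. Brain cluster 1 (1232 clear cells) was microglia-like, with Cst3, C1qa, C1qc and Trem2 among its leading genes. Cluster 3 (191 cells) was a mixed myeloid group led by H2-Eb1, H2-Ab1, H2-Aa, Cd74 and Apoe. Cluster 4 (248 cells) was led by the lymphocyte genes Ccl5, Gzma, Nkg7 and Xcl1 together with haemoglobin genes. Cluster 2 (36 cells) was neutrophil-like, with Camp, Ngp and S100a8 among its leading genes. Cluster 6 (301 cells) held endothelial and fibroblast genes. Cluster 0 (1236 cells) was led by mitochondrial genes at a median of 1563 UMIs and is not named. In blood, clusters 0, 1 and 3 of the naive table were neutrophil-like, B cell-like and monocyte-like, and clusters 0, 1 and 2 of the metastasis table were the same in that order.

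Ccr2, the targeted gene, fell in CCR2-/- cells of the myeloid cluster 3 and of the lymphocyte cluster 4. That the fall was larger there than in microglia-like cells did not pass a test, as given with the values of those cells. In cluster 3 its level was 2.66 (CCR2+/- 1), 3.16 (CCR2+/- 2), 0.29 (CCR2-/- 1) and 0.47 (CCR2-/- 2) per 10000. The genotypes did not overlap. The fall was 7.18-fold, a log2 difference of -2.84 (SE 0.29, 95% interval -3.47 to -2.22), with an adjusted p of 0.001 by limma over 6974 genes, and Ccr2 had the smallest p of all of them. The background in this cluster was 0.244% of genes called. With 1 sample left out Ccr2 stayed called but ranked 1 to 15 by p, among 66 to 237 called genes (1.04% to 3.91%). Of the 16 CCR2-/- sample 2 counts, 8 came from 1 cell without an RFP count.

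The lymphocyte cluster 4 showed a fall of like size. Ccr2 was at 1.42 and 1.28 in the CCR2+/- samples and at 0.134 and 0.178 in the CCR2-/- samples. The fall was 7.78-fold (log2 difference -2.96, SE 0.34, 95% interval -3.72 to -2.20, adjusted p = 0.021 by limma). It was the only gene called of 7115, which is 0.0141% of them. The call was lost without CCR2+/- sample 1 (-2.90, adjusted p = 0.400) and without CCR2+/- sample 2 (-3.02, adjusted p = 0.981), although the difference stayed as large. It was lost too among genes with at least 100 corrected counts (adjusted p = 0.301).

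Clear cells mattered for both clusters. With all deposited cells, whose cluster 3 holds 158, 134, 108 and 130 cells in place of 62, 51, 32 and 46, the log2 difference was -0.47 in cluster 3 (adjusted p = 0.276 by limma) and -1.79 in cluster 4 (adjusted p = 0.087).

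Microglia-like cells had little Ccr2 in either genotype. In cluster 1 the level was 0.118, 0.1, 0.121 and 0.0807 in the order above, and the groups overlapped. The log2 difference was -0.14 (95% interval -0.78 to 0.50, adjusted p = 0.957 by limma), where 0.532% of 10713 genes were called. Cluster 0 had levels of 0.251, 0.269, 0.215 and 0.173, a log2 difference of -0.42 (95% interval -1.19 to 0.35, adjusted p = 0.940), where 0.0607% of genes were called. The difference between cluster 3 and cluster 1 was itself tested: it came to -2.70 on the log2 scale (95% interval -3.77 to -1.63), with an adjusted p of 0.131 by limma that misses the threshold, where 0.0295% of genes were called. For cluster 4 against cluster 1 it was -2.82 (adjusted p = 0.277), where 0.0486% were called. Between clusters 3 and 4 the fall differed by 0.12 (95% interval -0.84 to 1.08, adjusted p = 0.998), in a test in which limma called 0% of 7280 genes and 340 had an unadjusted p under 0.05.

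Over all clear brain cells Ccr2 was at 0.468, 0.428, 0.149 and 0.133. The log2 difference was -1.66 (95% interval -2.02 to -1.29). Its p was the smallest of 13699 genes, but the adjusted p of 0.054 (limma) missed the threshold, and 0% of genes passed it, with 885 at an unadjusted p under 0.05. When any 1 sample was left out, Ccr2 passed, with log2 differences from -1.57 to -1.74, but so did 10 to 299 genes in all (0.0759% to 2.25%), and Ccr2 then ranked 8 to 26 by p. It also passed among genes with at least 5 corrected counts (adjusted p = 0.010).

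**Figure D1:**
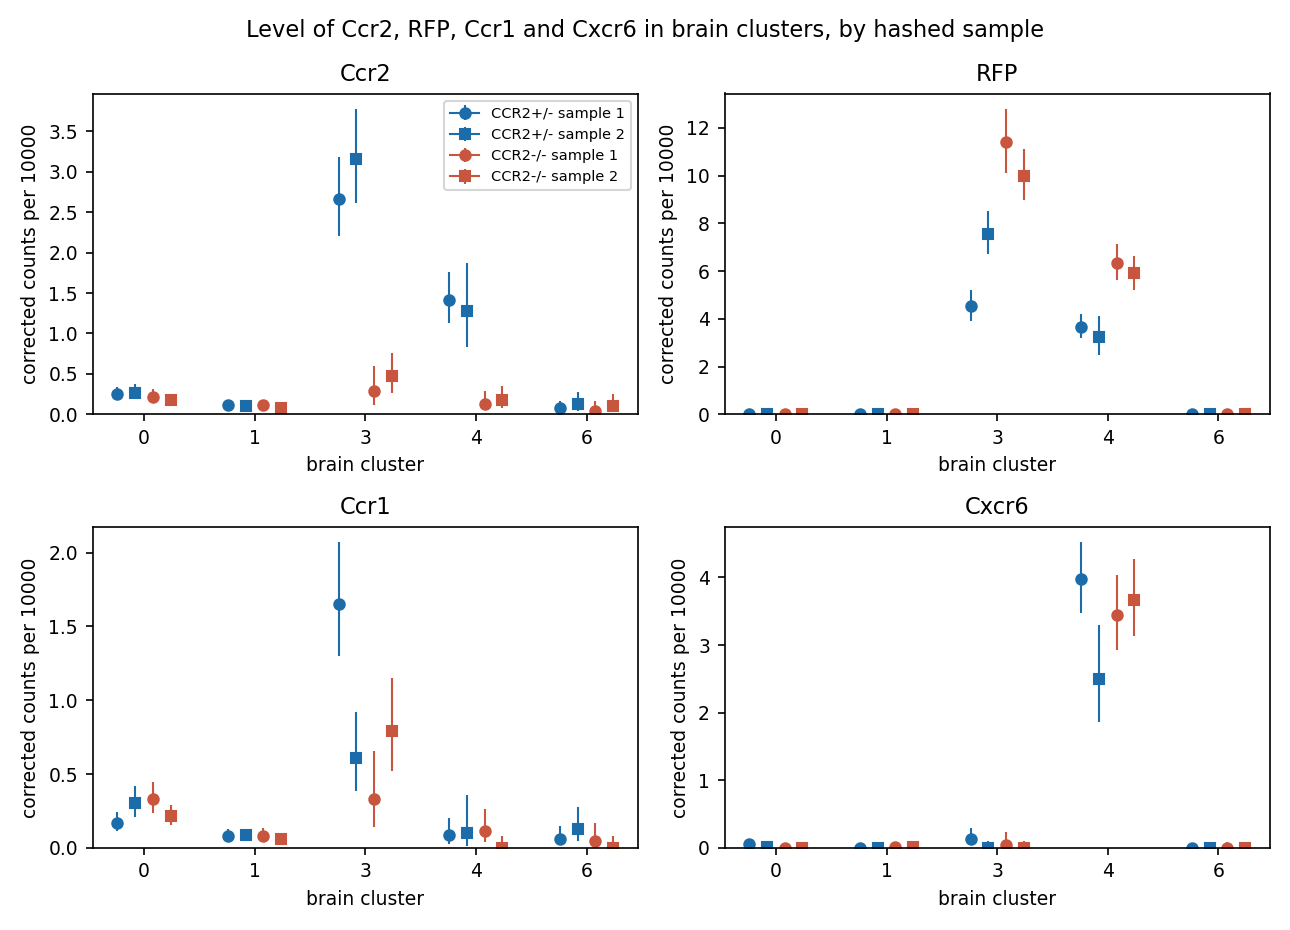
Level of Ccr2, RFP, Ccr1 and Cxcr6 (corrected counts per 10000, y axes with their own scales) in brain clusters 0, 1, 3, 4 and 6 (x axis), with 1 point per hashed sample, CCR2+/- in blue and CCR2-/- in red, and exact 95% intervals for counting error. Ccr2 is high in clusters 3 and 4 of the CCR2+/- samples (1.28 to 3.16) and low in the CCR2-/- samples (0.134 to 0.47). RFP stays in the same clusters in both genotypes, and in those clusters Ccr1 and Cxcr6 overlap between genotypes.

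The share of cells with a Ccr2 count showed the same pattern. In cluster 3, 31 of 62, 33 of 51, 6 of 32 and 7 of 46 cells had one, which is 50%, 64.7%, 18.8% and 15.2%, or 57.4% ± 10.4 (SD, n = 2) against 17% ± 2.5 (SD, n = 2). In cluster 4 the shares were 40.7%, 41.9%, 6.25% and 8.96%. An exact two-sided permutation test of 2 samples against 2 has 6 splits and cannot give a p below 0.333, so these shares carry no test of their own. Cells that should lack Ccr2 give the level of stray RNA: in the endothelial and fibroblast cluster 6 (median 8710 UMIs), 3.6%, 7.81%, 3.28% and 3.08% of cells had a count. The CCR2-/- share in cluster 3 (median 11874 UMIs) was above its cluster 6 value in both samples, and so was the microglia-like share in 3 of 4 samples (8.55%, 7.52%, 9.17% and 5.69%), though the exact intervals of both clusters overlapped in each sample. A 3′ count can come from a part of the transcript outside a deleted stretch, so the remaining counts say nothing about the allele.

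RFP, the reporter, was kept in the CCR2-/- brains, in the cells where Ccr2 fell. Its level in cluster 3 was 4.53, 7.57, 11.4 and 10, higher in both CCR2-/- samples than in either CCR2+/- sample. The log2 difference was 0.87 (95% interval 0.38 to 1.35), and its adjusted p of 0.201 (limma) missed the threshold. Left without CCR2+/- sample 2 or without CCR2-/- sample 2 it passed, at 1.24 (adjusted p = 8.6e-05) and 0.96 (adjusted p = 0.003), in fits that called 1.41% and 3.91% of genes. In cluster 4 RFP was at 3.66, 3.24, 6.35 and 5.9, again without overlap, with a log2 difference of 0.82 (95% interval 0.40 to 1.25, adjusted p = 0.989). Over all brain cells the values were 0.707, 0.736, 1.27 and 0.896 (log2 difference 0.56, adjusted p = 0.528), and without CCR2+/- sample 2 the adjusted p was 0.037, in a fit that called 2.25% of genes.

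The share of cells with an RFP count differed little between genotypes among clear cells at full depth. In cluster 3 it was 41.9%, 60.8%, 56.2% and 45.7%, and in cluster 4 it was 64%, 64.5%, 64.1% and 64.2%. The mean share differed by -0.409 percentage points in cluster 3 and by -0.114 in cluster 4. This depended on the cells and counts used. With all deposited cells the cluster 3 shares were 27.2%, 29.9%, 21.3% and 20.8%, a difference of -7.5 points. With each cell thinned to 1000 corrected counts the cluster 4 shares were 24.4%, 22.6%, 35.9% and 31.3%, a difference of 10.1 points. Of the 265 brain cells with an RFP count, 83, 55, 61 and 66 came from the 4 samples. In each sample clusters 3 and 4 held nearly all of them, for example 26 and 55 of the 83 cells of CCR2+/- sample 1 and 21 and 43 of the 66 cells of CCR2-/- sample 2. In cluster 6, where no RFP is due, 1 cell in all had a count.

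Cells with an RFP count allow the genotypes to be compared in cells that used the reporter allele. RFP counts chose these cells, so RFP itself was not tested among them, and an animal with fewer reporter copies may have more such cells without a count. Ccr2 among these cells was at 2.65, 3.26, 0.271 and 0.234. The fall was 10.8-fold (log2 difference -3.43, SE 0.27, 95% interval -4.03 to -2.84, adjusted p = 9.4e-04 by limma). Ccr2 was the only gene called of 7837, or 0.0128%. With 1 sample left out 12 to 144 genes were called (0.167% to 2.11%), and Ccr2 ranked 1 to 3 by p. Among RFP cells of cluster 3 the difference was -3.59 (95% interval -4.31 to -2.87, adjusted p = 0.007), the only call of 4502 genes (0.0222%). Among RFP cells of cluster 4 it was -2.60 (95% interval -3.36 to -1.83, adjusted p = 0.045), the only call of 6007 genes (0.0166%).

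RFP and Ccr2 were counted in the same cells in the CCR2+/- samples. In cluster 3 of the CCR2+/- samples, 80.8% and 93.5% of RFP cells also had a Ccr2 count, against 27.8% and 20% of cells without RFP. The CCR2-/- samples had 27.8% and 19% among RFP cells and 7.14% and 12% among the others. In cluster 4 the CCR2+/- shares were 50.9% and 55% with RFP and 22.6% and 18.2% without it. There the CCR2-/- shares were 9.76% and 11.6% with RFP, and 0% (0 of 23 cells, which allows a share of up to 13% at 3 cells, or 14.8% by the exact interval) and 4.17% without it. RFP cells were deeper, with median raw UMI counts of 18171, 11874, 13883 and 14075 in cluster 3 against 8283, 9757, 9785 and 11303 in cells without RFP, and the part of depth in these shares was not tested.

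**Figure D2:**
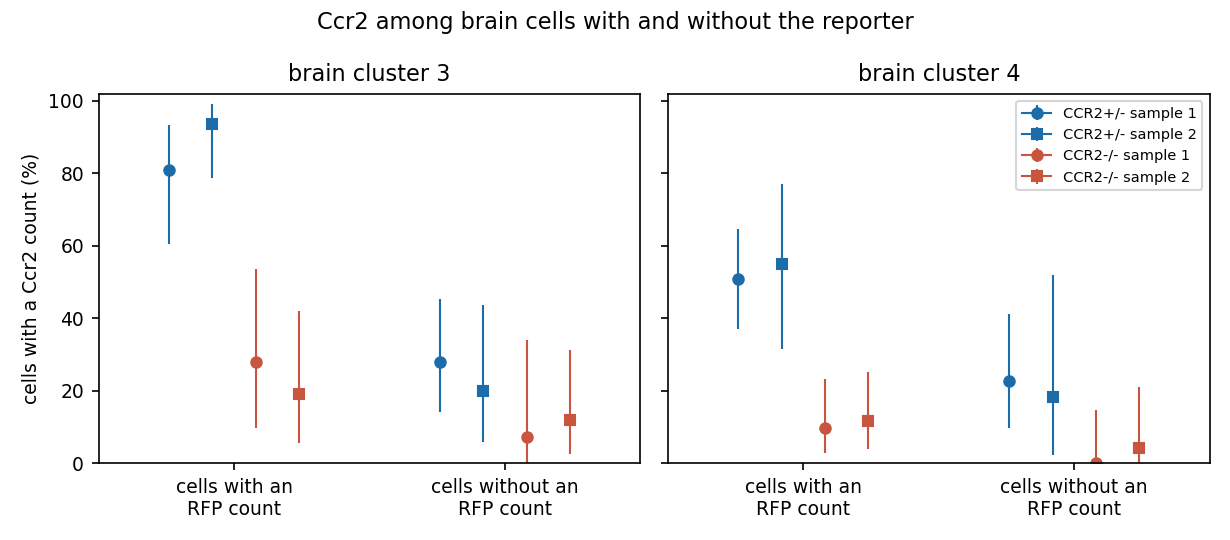
Share of cells with a Ccr2 count (y axis, percent) among cells with and without an RFP count in brain clusters 3 and 4, with 1 point per hashed sample (blue CCR2+/-, red CCR2-/-) and exact 95% binomial intervals. Among RFP cells of cluster 3 the CCR2+/- samples are at 80.8% and 93.5% and the CCR2-/- samples at 27.8% and 19%.

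The make-up of cluster 3 differed between samples. Of 14 marker lists, 5 had summed levels that did not overlap between genotypes in cluster 4, and 5 among cells with an RFP count. In cluster 3 there were 6, 4 higher and 2 lower in CCR2-/- samples, which is near those counts. With 2 samples against 2 such separation is common, as an exact permutation test cannot give a p below 0.333. No list was tested, nor was its part in the Ccr2 and neighbour values. The summed level of 7 Ly6c-low monocyte markers (Ace, Treml4, Eno3, Itgal, Nr4a1, Spn, Pou2f2) was 8.88 and 6.19 in the CCR2+/- samples and 20.7 and 17.3 in the CCR2-/- samples, and in CCR2+/- sample 2 Ace, Treml4 and Eno3 were at 0. The 5 Ly6c-high monocyte markers other than Ccr2 summed to 8.61, 10.9, 4.31 and 7.7, and those of border macrophages to 26.8, 15.7, 10.8 and 14.4. The other lists without overlap were those of plasmacytoid dendritic cells (11.1, 8.95, 13.6 and 11.8), B cells (0.945, 1.38, 5.1 and 1.44) and endothelium (0.22, 0.133, 0.58 and 0.559). Neutrophil markers were at 25.6, 6.56, 4.1 and 6.67, high in CCR2+/- sample 1 alone. With Ccr2, 17 genes were called in the cluster with all 4 samples, 14 higher and 3 lower. Ace (log2 difference 4.08), Eno3 (4.17), Itgal (2.52) and Cd300e (4.16) were among the higher ones, and Apoe (-1.02) and Prtn3 (-2.80) were the other lower ones. The median gene in cluster 3 had a log2 difference of 0.11, and member values are not corrected for it. In bulk sums of this kind, fewer cells of a type and less RNA per cell cannot be told apart.

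No neighbour of Ccr2 was called in any fit of all 4 samples. In cluster 3, 0 of the 4 neighbours with enough counts passed (limma, 1 at an unadjusted p under 0.05), where 0.244% of all genes passed and 8.79% had an unadjusted p under 0.05, with a median log2 difference of -0.55 against 0.11 for all genes. In cluster 4 it was 0 of 4 (0 at an unadjusted p under 0.05, against 4.01% of all genes), with a median of -0.18 against 0.01. Among cells with an RFP count it was 0 of 5 (1 at an unadjusted p under 0.05, against 4.89%), with a median of 0.15 against 0.06. Over all brain cells 0 of 6 passed (1 at an unadjusted p under 0.05, against 6.46%), with a median of -0.26 against -0.06. In clusters 0 and 1 it was 0 of 4 and 0 of 3, with 0 at an unadjusted p under 0.05 in both (5.56% and 8.86% of all genes). With so few genes called in any of these fits, a count of 0 among so few neighbours is near the background. The neighbours tested are those with enough counts, not all 6, and they include Ccrl2, 13044 kb away. Without Ccrl2, 0 of 3 passed in cluster 3 (limma, 0 at an unadjusted p under 0.05), with a median of -0.54. In cluster 4 it was then 0 of 3 (0 at an unadjusted p under 0.05), with a median of 0.04. Among RFP cells it was 0 of 4 (1, median 0.39), and over all brain cells 0 of 5 (1, median -0.42).

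Ccr1 had the lowest log2 difference of the tested neighbours in cluster 3 and among RFP cells. In cluster 3 it was at 1.65, 0.611, 0.332 and 0.794, so the genotypes overlapped, and CCR2+/- sample 1 stood above the other 3. Its log2 difference was -0.90 (SE 0.46, 95% interval -1.88 to 0.09, adjusted p = 0.615 by limma). Without CCR2+/- sample 2 it was -1.59 (adjusted p = 0.025), and without CCR2-/- sample 2 it was -1.47 (adjusted p = 0.004), in fits that called 1.41% and 3.91% of all genes, so the call depends on the samples kept. With all deposited cells the sign turned, to 0.22 (adjusted p = 0.676). CCR2+/- sample 1, where Ccr1 was highest, also had the highest neutrophil marker sum of cluster 3 (25.6). The sums of border macrophage (26.8) and red cell (11.6) markers, among others, were highest in that sample too. Neutrophils are the main Ccr1 cells of the blood tables. The part of any of these cell types in the value was not tested. The neutrophil-like brain cluster 2 had Ccr1 at 4.97, 6.18, 4.87 and 4.3, counted in every cell. Both CCR2-/- values there were below either CCR2+/- value, with overlapping exact intervals. With 9, 8, 2 and 17 cells that cluster was not tested. Among all RFP cells the Ccr1 log2 difference was -1.03, and its sign held in the 10 alternatives. The lowest adjusted p of the neighbours tested in those cells was 0.94 (limma). Among RFP cells of cluster 3 Ccr1 was at 1.37, 0.741, 0.44 and 0.883 (log2 difference -0.60, 95% interval -1.57 to 0.37, adjusted p = 0.784).

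Ccrl2 was counted in most cells of the brain's microglia-like cluster. In that cluster 1 it was at 3.44, 2.67, 3.29 and 3.52 and was counted in 66.1% to 75.2% of cells. The log2 difference there was 0.17 (95% interval -0.06 to 0.39, adjusted p = 0.719 by limma). In cluster 3 the level was 5.82, 4.97, 3.07 and 4.29, lower in both CCR2-/- samples than in either CCR2+/- sample, with a log2 difference of -0.56 (95% interval -1.02 to -0.10, adjusted p = 0.474). Without CCR2-/- sample 2 this was -0.80 (adjusted p = 0.036), in the fit that called 3.91% of genes. RFP cells of cluster 3 had 5.34, 4.36, 3.37 and 5.99, which overlap (log2 difference -0.09, 95% interval -0.72 to 0.54).

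Cxcr6 was almost limited to the lymphocyte cluster 4. There it was at 3.97, 2.5, 3.45 and 3.67 and was counted in 64%, 41.9%, 59.4% and 50.7% of cells. The genotypes overlapped, with a log2 difference of 0.17 (95% interval -0.36 to 0.70, adjusted p = 0.989 by limma). In the other clusters of cell types it was rare, with at most 4 cells in any sample of cluster 1, at most 3 in cluster 3 and 0 in cluster 6. Over all brain cells Cxcr6 followed the cells of cluster 4, which numbered 86, 31, 64 and 67: it was at 0.41, 0.109, 0.355 and 0.25. The log2 difference over all cells was 0.49 (95% interval -0.64 to 1.61, adjusted p = 0.912), and it became 1.43 (adjusted p = 2.4e-04, 1.31% of genes called) without CCR2+/- sample 1 and -0.46 (adjusted p = 0.417) without CCR2+/- sample 2. RFP cells as a whole gave 0.63 (adjusted p = 0.937) and, without CCR2+/- sample 1, 1.38 (adjusted p = 0.005, 2.11% of genes called). Within RFP cells of cluster 4 the difference was 0.19 (95% interval -0.35 to 0.74, adjusted p = 0.969).

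Cxcr6 and RFP were found in the same cells of cluster 4 in all 4 samples. Among RFP cells 76.4%, 55%, 68.3% and 60.5% had a Cxcr6 count, against 41.9%, 18.2% (of 11 cells), 43.5% and 33.3% of cells without RFP. The level was higher in the RFP cells of each sample, at 4.43, 2.87, 3.91 and 4.32 against 3, 1.7, 2.55 and 2.39. The RFP cells of cluster 4 had median raw UMI counts of 7749, 7055, 7681 and 6989, against 3881, 1619, 5964 and 5097 in the others. Cluster 4 also mixes cell types, and the part of depth or cell type in this was not tested. Red cell markers, haemoglobin genes among them, summed to 0.592, 11.6, 0.578 and 0.603 in the RFP cells and to 675, 2010, 1819 and 692 in the others. NK cell markers were at 25.1, 66.3, 37.7 and 73 with RFP and at 14.6, 25.7, 12.1 and 45.7 without it. T cell markers were at 20.9, 12.2, 24.2 and 20 with RFP and at 19.8, 6.96, 23.2 and 22.2 without it. Gamma delta T cell markers were lower with RFP in each sample, at 3.99, 1.44, 6.43 and 4.52 against 6.98, 2.01, 6.74 and 8.75. Neutrophil markers were lower too, at 5.28, 6.54, 5.58 and 6.83 against 17.7, 31.1, 52.1 and 14.

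Fyco1, the gene that spans Cxcr6, did not follow it over cell types. Among the brain and blood clusters compared below, the Fyco1 level was highest in brain cluster 7, at 1.91 in the CCR2+/- samples together. The leading genes of that cluster include Acta2 and Tagln, and it had too few cells per sample to be tested. Fyco1 was lower in cluster 1, at 0.434, 0.439, 0.378 and 0.42. It was at 0.22, 0.239, 0.249 and 0.265 in cluster 3, and at 0.28, 0.196, 0.224 and 0.289 in cluster 4. Its log2 differences were -0.13 (95% interval -0.44 to 0.18), 0.21 (-0.76 to 1.17) and 0.04 (-0.95 to 1.02), with adjusted p-values of 0.880, 0.936 and 0.997 by limma. In the endothelial and fibroblast cluster 6 it was at 0.607, 0.527, 0.584 and 0.575, with a log2 difference of 0.05 (95% interval -0.57 to 0.66), where 0.127% of genes were called and 0 of the 2 neighbours tested.

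Ccr9 and Xcr1 rested on few brain cells. Ccr9 in cluster 3 was at 0.615, 0.266, 0.456 and 0.147, but these came from 1, 1, 2 and 1 cells, 1 of which held 28 counts. Its log2 difference of -0.54 (95% interval -1.69 to 0.60) therefore describes single cells. Xcr1 was counted in 2, 3, 4 and 2 brain cells of the 4 samples (6, 7, 6 and 3 counts) and could be tested only over all brain cells, where its log2 difference was -0.53 (95% interval -2.32 to 1.26, adjusted p = 0.946 by limma). A change of Xcr1 within a cluster was not detectable at this depth.

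**Figure D3:**
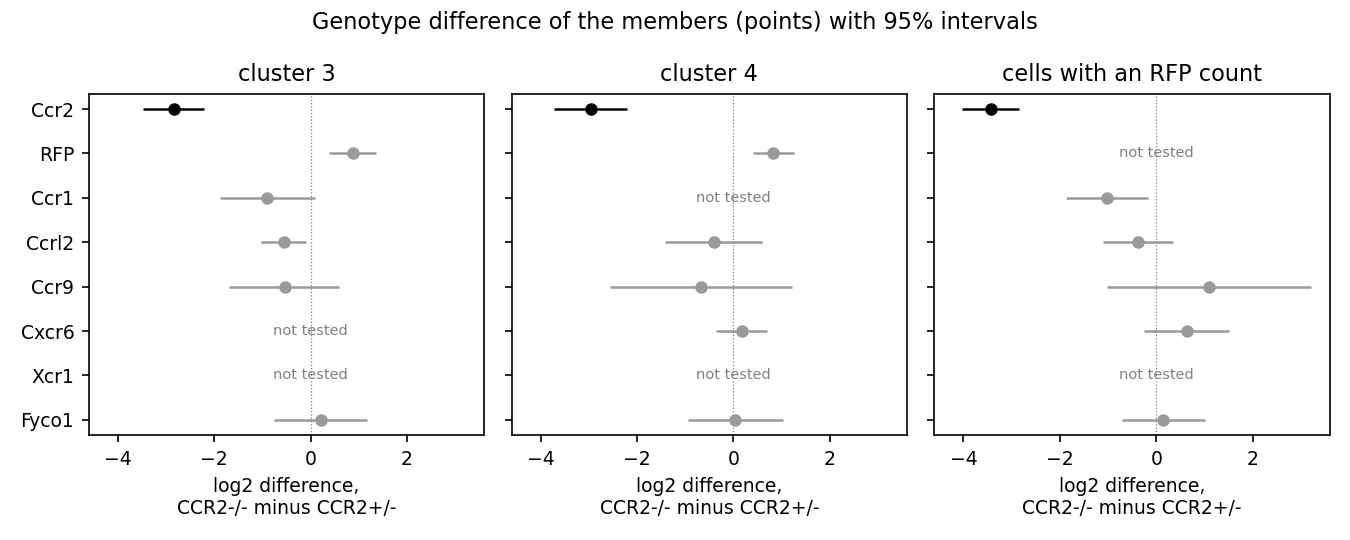
Log2 difference of each member, CCR2-/- minus CCR2+/- (x axis), in brain cluster 3, cluster 4 and cells with an RFP count, with 95% intervals from limma; black points passed an adjusted p of 0.05 and grey points did not, and "not tested" marks genes with under 20 counts or, for RFP in RFP cells, the gene that chose the cells. Ccr2 lies at -2.84, -2.96 and -3.43, and the interval of each other member lies above that of Ccr2 in each panel except that of Ccr9 in cluster 4.

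Beyond the members, 15 other measured protein-coding genes lie within 1 Mb of Ccr2, and 1 gene of the window was not used here. In cluster 3, 11 genes of the window other than Ccr2 had enough counts and 0 passed (limma, 0 at an unadjusted p under 0.05); their median log2 difference was -0.09, from -0.90 to 0.59. In cluster 4 it was 0 of 10 (1 at an unadjusted p under 0.05), from -1.0 to 0.48, and among RFP cells 0 of 12 (1 at an unadjusted p under 0.05), from -1.03 to 1.12. Ccr3, the eotaxin receptor 70.2 kb from Ccr2, and Ccr1l1, 115 kb from it, had too few counts to be tested in any of the fits, and Ccr1l1 was at 0 in clusters 1, 3 and 4 of every sample. Lztfl1, a regulator of ciliary traffic 384 kb away, was at 0.647, 1.03, 0.246 and 0.645 in cluster 4 (log2 difference -1.0, 95% interval -1.98 to -0.03, adjusted p = 0.989). Sacm1l, a phosphoinositide phosphatase 509 kb away, was at 0.22, 0.106, 0.207 and 0.265 in cluster 3 (0.59, 95% interval -0.58 to 1.77, adjusted p = 0.832). Limd1, a LIM domain adaptor, was at 0.483, 0.558, 0.539 and 0.5 there (0.03, 95% interval -0.68 to 0.74). Of the listed genes near Ccrl2, outside the window, Ccdc12 was at 1.6, 1.78, 2.49 and 1.94 in cluster 3 (0.38, 95% interval -0.13 to 0.89, adjusted p = 0.714) and Nbeal2 at 0.154, 0.133, 0.332 and 0.323 (1.12, 95% interval 0.09 to 2.15, adjusted p = 0.529).

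**Figure D4:**
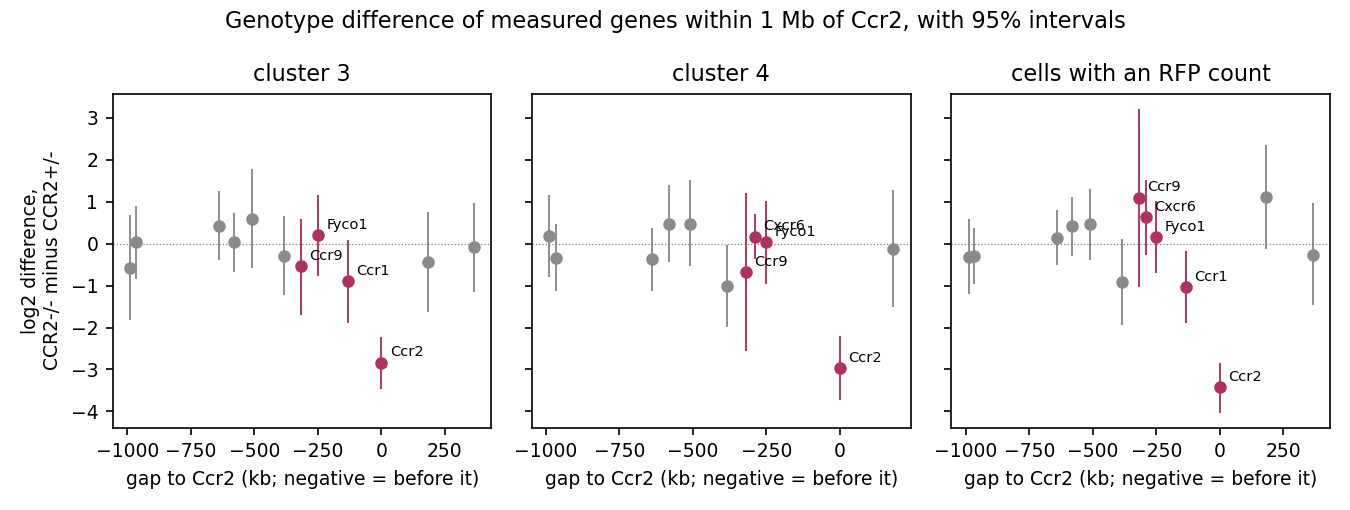
Log2 difference, CCR2-/- minus CCR2+/- (y axis), of each tested gene within 1 Mb of Ccr2 against the gap between the gene and Ccr2 (x axis, kb, negative for genes before it), in cluster 3, cluster 4 and cells with an RFP count; lines are 95% intervals from limma, with members in red and other genes in grey. Ccr2 stands alone at -2.84, -2.96 and -3.43, and the other genes lie between -1.03 and 1.12.

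The ligands of these receptors were not called in any of the fits. For Ccr2, Ccl12 was at 4.39, 4.15, 6.58 and 4.96 in the microglia-like cluster 1 (log2 difference 0.42, 95% interval 0.19 to 0.65, adjusted p = 0.085 by limma) and Ccl2 at 1.88, 1.02, 2.29 and 1.04 (0.15, adjusted p = 0.916). In cluster 3 Ccl2 was at 13, 3.4, 4.23 and 7.35 and Ccl12 at 6.75, 10.8, 4.69 and 6.09 (-0.67, 95% interval -1.17 to -0.18, adjusted p = 0.424). The genotypes overlapped for Ccl2 and did not for Ccl12, whose values were higher in CCR2-/- samples in cluster 1 and lower in cluster 3. For Ccr1, Ccl3 was at 26.8, 18.7, 17.9 and 14.1 in cluster 1 (-0.49, 95% interval -0.77 to -0.21, adjusted p = 0.117). Xcl1, the Xcr1 ligand, was made in cluster 4, at 11.3, 13.1, 17.3 and 14.5 (0.38, adjusted p = 0.989). Ccl5, which Ccr1 also binds, was at 48.7, 55.2, 68.3 and 80.1 in the same cluster (0.51, 95% interval 0.14 to 0.88, adjusted p = 0.989). Ccl7, a further Ccr2 ligand, was at 9.93, 0.876, 1.66 and 1.94 in cluster 3, high in CCR2+/- sample 1 alone (-0.71, adjusted p = 0.845). Of the 11 ligands, 9 were tested in cluster 1, 8 in cluster 3 and 5 in cluster 4. Of these, 5, 3 and 2 had an unadjusted p under 0.05 (limma), against 8.86%, 8.79% and 4.01% of all genes in those clusters. Ligand log2 differences in cluster 3 ran from -0.71 to 3.00. Among RFP cells 10 ligands were tested, with differences from -2.20 to 1.12. There 5 had an unadjusted p under 0.05, against 4.89% of all genes.

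Chemokine receptors at other loci were not called either. Of 14 listed, 5, 4 and 4 were tested in clusters 1, 3 and 4, with 1, 2 and 1 at an unadjusted p under 0.05 by limma, against the same shares of all genes. Ccr7, the lymph node homing receptor, was nearest to a call in cluster 3, at 0.264, 0.0797, 0.871 and 0.941 (log2 difference 2.43, 95% interval 1.44 to 3.42, adjusted p = 0.053). It was counted there in 4.84%, 3.92%, 9.38% and 2.17% of the 62, 51, 32 and 46 cells, so its log2 difference, like that of Ccr9, describes single cells. Cmklr1, the signalling receptor of the chemerin that Ccrl2 binds, was at 0.615, 0.372, 0.124 and 0.206 in cluster 3 (-1.35, 95% interval -2.31 to -0.40, adjusted p = 0.385). Cxcr3 was at 1.54, 0.638, 1.3 and 1 in cluster 4 (0.17, adjusted p = 0.996), and Cxcr4 at 2.05, 1.32, 1.05 and 1.54 (-0.38, adjusted p = 0.989). The scavenging receptors Ackr1 and Ackr3 were highest in cluster 6, whose leading genes include the endothelial Flt1 and Cldn5. Ackr1 was at 0.253, 0.105, 0.748 and 1.49 there, higher in both CCR2-/- samples than in either CCR2+/- sample (log2 difference 2.56, 95% interval 1.57 to 3.54), and was not called by limma (adjusted p = 0.078). It was counted in 8, 4, 9 and 7 cells. Ackr3 was at 0.797, 0.949, 1.05 and 0.809 in that cluster, with overlapping genotypes (0.09, adjusted p = 0.976).

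Ccr2, Ccr1, Ccrl2 and Cxcr6 each had their own place among the cell groups of brain and blood. In the CCR2+/- and Het samples Ccr2 was highest in the monocyte-like clusters of blood, at 17.7 (metastasis-bearing) and 12.2 (naive), against 2.89 in brain cluster 3 and 1.38 in brain cluster 4. Ccr1 was highest in the neutrophil-like clusters of blood (18.5 and 17.3). In the brain it was at 5.52 in the neutrophil-like cluster 2 (17 cells) and at 1.18 in cluster 3. Ccrl2 was highest in brain clusters 3 and 1 (5.44 and 3.02) and at most 0.222 in any blood cluster of 20 or more cells. Cxcr6 led in brain cluster 4 (3.58), then in the T cell-like cluster 3 of metastasis blood (1.13). Ccr9 was at 0.478 in the lymphocyte cluster 2 of naive blood and at 0.457 in brain cluster 3, the latter from 2 cells. The tables were normalized apart, so levels set across them are approximate. The brain samples here are CCR2+/-, whereas the labels do not name the gene of Het in blood. The number of intact Ccr2 copies may therefore differ between them.

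**Figure D5:**
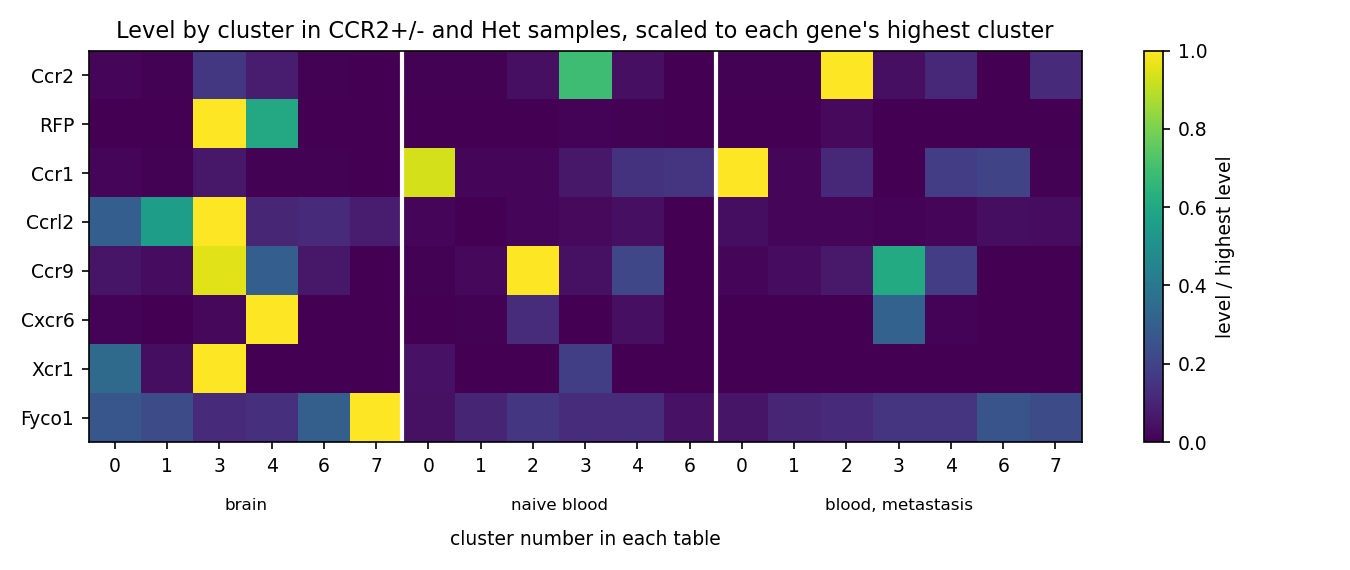
Level of each member in every cluster of 20 or more clear cells, divided by the gene's highest cluster (colour, 0 to 1), for the CCR2+/- brain samples together and the naive and metastasis-bearing Het blood samples; columns are the authors' cluster numbers in each table. Ccr2 peaks in cluster 2 of metastasis blood (17.7), Ccr1 in its cluster 0 (18.5), RFP (5.9) and Ccrl2 (5.44) in brain cluster 3 and Cxcr6 in brain cluster 4 (3.58).

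Over 17 clusters of at least 30 clear cells and 10632 genes, the genes with patterns most like Ccr2 were Cyp4f16 (Pearson r = 0.938), Fam49a (0.928), Msr1 (0.910), Tusc1 (0.907) and Galnt9 (0.906). For RFP they were Ptger4 (0.946), Tyms (0.901), Bcl2a1d (0.891), Top2a (0.889) and Tnip3 (0.874). Ccr2 and RFP themselves correlated at only 0.218, and the monocyte-like blood clusters, high in Ccr2, hold nearly no RFP. The labels do not say whether the mice of the blood samples carried the reporter. This correlation and the genes most like RFP therefore do not describe how RFP relates to Ccr2 within brain cells. Clusters of 1 table share a library, so these values are descriptions.

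Blood had 1 sample per group, so no test was made. Ccr2 in the monocyte-like cluster was not lower in Hom than in Het of naive mice, at 12.2 (Het) and 12.6 (Hom), a ratio of 1.03 (95% interval 0.948 to 1.12), and was counted in 82.3% and 86.3% of cells. In metastasis-bearing mice it was at 17.7 and 15.7, a ratio of 0.887 (0.844 to 0.932), and in 88.2% and 94.6% of cells. In the NK cell-like cluster 7 of metastasis blood (35 and 24 cells) Ccr2 was at 2.17 in Het and 4.67 in Hom, a ratio of 2.15 (1.38 to 3.39). In the lymphocyte cluster 2 of naive blood it was at 0.724 and 1.2, a ratio of 1.66 (1.22 to 2.29).

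Cx3cr1, the fractalkine receptor gene 4034 kb from Ccr2, did differ between the monocyte-like cells of Het and Hom. It was at 3.18 and 0.426 in naive mice, a ratio of 0.134 (0.0932 to 0.187), and at 2.2 and 0.277 in metastasis-bearing mice. EGFP, which is also listed in the tables, was at 0.246 and 0.502 in naive and 0.217 and 0.272 in metastasis-bearing mice in the same clusters. RFP was almost missing from blood, counted in 11 and 7 cells of the naive and 5 and 8 cells of the metastasis-bearing Het and Hom samples. In the metastasis-bearing Het sample 22 of its 27 RFP counts came from 1 monocyte-like cell. In the brain Cx3cr1 was at 34.4, 38.3, 35.7 and 37.5 in the microglia-like cluster.

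The neighbours in blood had Hom over Het ratios of 0.749 to 1.66 in the clusters where a ratio was computed, the low Ccr1 of B cell-like cells aside. Among the lowest were Ccr1 in naive monocyte-like cells, at 0.749 (0.556 to 1.01), and Fyco1 in metastasis-bearing mice. Fyco1 was at 0.762 (0.444 to 1.3) in neutrophil-like and 0.799 (0.498 to 1.29) in monocyte-like cells there. Ratios above 1 are among those given next. Ccr1 in neutrophil-like cells was at 17.3 and 21.4 in naive mice, a ratio of 1.24 (1.19 to 1.29), and at 18.5 and 20.9 in metastasis-bearing mice, a ratio of 1.13 (1.09 to 1.17). B cell-like cells, which should have little Ccr1, had 0.312 and 0.653 in naive and 0.302 and 0.853 in metastasis-bearing mice. Their ratios, outside the range above, were 2.09 (1.59 to 2.79) and 2.82 (2.11 to 3.79). Cxcr6 in the lymphocyte cluster of naive blood was at 0.451 and 0.562, a ratio of 1.25 (0.833 to 1.91), and in the T cell-like cluster of metastasis blood at 1.13 and 1.4. Ccr9 in the same clusters was at 0.478 and 0.539, a ratio of 1.13 (0.757 to 1.71), and at 0.293 and 0.488, a ratio of 1.66 (0.923 to 3.07). Fyco1 was at 0.246 and 0.24 in naive monocyte-like cells, a ratio of 0.974 (0.515 to 1.84). Intervals of these ratios cover counting error in 2 libraries and compare those libraries, not the genotypes.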

How the data were processed

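Single-cell gene expression was measured in 1 hashed pool of 8 samples (10x 3′ libraries, version 3, Cell Ranger 3.1, mm10, per the submitters' processing notes and the labels' protocols). The deposited tables hold, per the file contents, the natural log of 1 plus a corrected count, made by the authors for each table apart; exp of a value minus 1 was whole to within 2.18e-11. Raw UMI counts per cell, hashtag counts, corrected-count totals, clusters and hash groups were taken from the deposited cell descriptions. The version of the normalization and the cell filters are not given in the sources used here, nor is doublet treatment; no doublet caller was run, and hashtag share served instead.

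Corrected counts were summed per hashed sample and cluster (at least 20 clear cells in every brain sample). They were scaled to the total as log2 with a pseudocount of 1, and genes with at least 20 counts over the 4 samples were tested with limma 3.58.1 (R 4.3.3), with Benjamini-Hochberg adjustment over all genes tested and a threshold of 0.05. Low-depth cells have raised corrected counts, so intervals are too narrow there. The fits of RFP cells within a cluster and the differences between clusters were added after seeing the data. Scripts were tested on simulated data. Members and lists were chosen with earlier results of these data known. Named genes were the members, those of each list called or highest in level (at most 6), read over the tested brain clusters, a reading chosen after values were seen, and the 5 most like Ccr2 and RFP. Genes called in cluster 3 (Ace, Eno3, Itgal, Cd300e, Apoe, Prtn3) were named after their values were seen. Of the window, 1 gene is not reported here. Alternatives were the cells kept, the hashtag share, the pseudocount, the count minimum, median-of-ratios scaling, thinning to 1000 corrected counts and each sample left out.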

Additional observations from a re-analysis of the deposited data

How the results depend on the processing

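Of 46 alternative Ccr2 differences in clusters 3 and 4, all brain cells and RFP cells, 46 were below 0. The calls that changed were cluster 3 with all deposited cells (-0.47), cluster 4 with all deposited cells (-1.79) or at least 100 counts (-2.96), cluster 4 with a CCR2+/- sample left out (-3.02, -2.90; over all 4 samples left out in turn -3.14 to -2.78), and all brain cells with at least 5 counts (-1.66) or 1 sample left out (-1.74 to -1.57). With 1 sample left out, the lone sample of its genotype is assumed to vary like the others. The number of all genes called moved far more than these values: with 1 sample left out it was 66 to 237 in cluster 3 (17 with all 4), 0 to 4 in cluster 4 (1), 10 to 299 over all brain cells (0), 12 to 144 in RFP cells (1), 12 to 30 in cluster 0 (6), 29 to 121 in cluster 1 (57) and 0 to 185 in cluster 6 (12). In cluster 3 it was 10 with a pseudocount of 0.5, 41 and 3 with at least 5 and 100 counts and 27 with all deposited cells, and in cluster 1 it was 96 with at least 5 counts. The count of neighbours called was 0 in 80 of 84 alternatives and otherwise 1 or 2, always with 1 sample left out: Ccr1 and Ccrl2 in cluster 3, Cxcr6 over all brain cells and RFP cells. Of 284 alternative neighbour differences 5 passed. The difference in share of cells with a Ccr2 count moved from -40.4 percentage points in cluster 3 to -19.8 (all deposited cells) and -20.9 (thinned to 1000 corrected counts), and from -33.7 in cluster 4 to -19.3, -10.5 and -35.7 (hashtag share of at least 0.8). Over all brain cells it moved from -6.4 to -7.57 (hashtag share) and -2.59 (thinned), and in RFP cells from -53.2 to -24.3 (thinned). The RFP share difference in cluster 3 was -7.5 with all deposited cells, and in cluster 4 it was 6.88 with all deposited cells, -2.73 at a hashtag share of 0.8 and 10.1 thinned. Thinned shares of monocyte-like cells with a Ccr2 count were 51.4% and 65.9% (naive Het, Hom) and 73.6% and 74.3% (metastasis-bearing). Every cell held over 1000 corrected counts, so thinning left out none and does not even out raw depth. The cause of these moves was not tested.

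Signs turned for differences that were not called with all 4 samples; of the turned values none was called. With each sample left out in turn the values ran from -0.18 to 0.64 for Ccr1 in cluster 0, -0.41 to 0.03 for Ccr1 and -0.43 to 0.15 for Ccr2 in cluster 1, and -1.29 to 0.21 for Ccr9 in cluster 3. For Ccrl2 they ran from -0.29 to 0.21 in cluster 0, -0.02 to 0.35 in cluster 1, -0.96 to 0.16 in cluster 4, -0.12 to 0.14 over all brain cells and -0.87 to 0.12 in RFP cells. Those of Cxcr6 were -0.16 to 0.49 in cluster 4, -0.46 to 1.43 over all brain cells and -0.13 to 1.38 in RFP cells, and those of Ccr9 in RFP cells -0.79 to 2.98. Fyco1 ran from -0.09 to 0.22 in cluster 0, -0.13 to 0.21 in cluster 4, -0.04 to 0.13 in cluster 6, -0.20 to 0.01 over all brain cells and -0.09 to 0.40 in RFP cells. With all deposited cells they were Ccr1 in clusters 0, 1 and 3 and all brain cells (-0.07, 0.03, 0.22, 0.06), Ccrl2 in cluster 0 (0.05), Ccr9 in cluster 4 (0.11) and Fyco1 in clusters 3 and 4 (-0.15, -0.57). Ccrl2 in cluster 0 turned with median-of-ratios scaling (0.00) and a hashtag share of 0.8 (0.17), and Fyco1 in cluster 4 with a pseudocount of 5 (-0.14) and, with cluster 6, a hashtag share of 0.8 (-0.00, -0.12). No paired analysis was possible because the labels give the hashed samples no replicate numbers; the numbers used here follow the hashtags and tie no sample of 1 genotype to 1 of the other.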

Other observations

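The authors' antibody gates for Ly6C split the brain cells in another way than the clusters. Brain cells gated Ly6C-high numbered 7, 7, 3 and 4 in CCR2+/- samples 1 and 2 and CCR2-/- samples 1 and 2. Ccr2 was at 7.12, 6.72, 1.28 and 0.33 per 10000 there and RFP at 16.8, 22.6, 41.1 and 26.1. In the Ly6C-low gate (33, 60, 19 and 28 cells) Ccr2 was at 1.55, 1.54, 0.145 and 0.242, and RFP at 2.31, 3.13, 9.79 and 3.05. Ccr1 in that gate was at 0.378, 0.317, 0.145 and 0.145, from 14 counts or fewer per sample. Ccrl2 there was at 6.42, 4.51, 2.76 and 2.42, from 153, 199, 38 and 50 counts, lower in both CCR2-/- samples than in either CCR2+/- sample. In blood, Ly6C-high cells had Ccr2 at 18 and 16.7 (naive Het, Hom) and 20.6 and 16.5 (metastasis-bearing Het, Hom), against 3.98, 4.34, 4.29 and 3.52 in Ly6C-low cells. These gates were not tested.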
